A study of Mus musculus with 14 samples.

Results

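The Hoxc cluster of the mouse comprises the 9 homeobox genes Hoxc4, Hoxc5, Hoxc6, Hoxc8, Hoxc9, Hoxc10, Hoxc11, Hoxc12 and Hoxc13 on chromosome 15. All 9 were taken as members, of 21883 protein-coding genes in the RefSeq table of build GRCm38.p6. Chromatin immunoprecipitation sequencing peaks of 4 proteins were collected around them, and 45 of 132214 regions, summed over 6 groups of libraries, were nearest to a Hoxc gene. A region was a stretch of overlapping peaks that held a peak of both replicates of its group. It was given to the protein-coding gene whose end lay nearest to the region's strongest summit, within 100 kb. The farthest Hoxc summit lay 49502 bp from its gene. The nearest region left out was a Zeb2 region 65163 bp above the cluster, which lay closer to Smug1, so the 100 kb limit itself removed nothing.

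All cells came from the E14_triple reporter mouse embryonic stem cell line (mESC). Gastruloids were 120 h aggregates grown from 300 sorted cells per well and given 3 µM CHIR99021, an activator of Wnt signalling, from 48 h. The p300 groups carried the allele endogenous p300-V5-miniTurboID and were profiled with a V5 antibody in gastruloids and in undifferentiated mESCs, with 2 libraries each and 1 input per cell type. The RXRα groups carried endogenous Rxr[alpha]-HA-FKBP12F36V and were profiled with an HA antibody in gastruloids and in mESCs, with 2 libraries each. Sp5-HA-FKBP12F36V and Zeb2-HA-FKBP12F36V, also endogenous, were profiled with the HA antibody in gastruloids, with 2 libraries each and no mESC libraries. Every protein was thus read through its tag, each tag is a genotype of its own, and a gastruloid library pools all cell types of the aggregates. The labels number the replicates and do not say whether they were separate cultures. With 2 libraries against 2, the smallest two-sided exact p is 0.333, so counts and levels are given as descriptions.

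Hox genes encode homeodomain transcription factors that give cells their position along the head-to-tail axis. In each mammalian cluster the genes lie in 1 direction of transcription, and those at the end of the low-numbered genes, here Hoxc4, are switched on earlier and further to the front than those at the other end, here Hoxc13. In mESCs the clusters are silent and covered by Polycomb, and in the elongating embryo Wnt signals, Cdx factors, retinoic acid and Gdf11 act on them. p300 is a histone acetyltransferase found at active enhancers and promoters. RXRα is the partner of the retinoic acid receptors, Sp5 is a Wnt target that binds GC-rich motifs with zinc fingers, and Zeb2 is a repressor that binds E-boxes.

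The cluster spans 115.7 kb, from chr15:102921131 at the lower end of Hoxc13 to chr15:103036856 at the upper end of Hoxc4. It is flanked by long stretches without protein-coding genes, 198952 bp to Calcoco1 below Hoxc13 and 116433 bp to Smug1 above Hoxc4. In p300 libraries 24 and 28 peaks fell to Hoxc genes in gastruloids, against 4 and 3 in mESCs. The p300 lists held 63117 and 75346 peaks in gastruloids and 44506 and 35371 in mESCs, so of every 10000 p300 peaks Hoxc genes took 3.80 and 3.72 in gastruloids, against 0.899 and 0.848 in mESCs. Both gastruloid libraries lay above both mESC libraries on this scale. RXRα gave 13 and 4 Hoxc peaks in gastruloids and 8 and 6 in mESCs, Sp5 gave 10 and 6, and Zeb2 gave 30 and 8. The short lists were RXRα replicate 2 in gastruloids, with 3111 peaks against 29867 in replicate 1, and Zeb2 replicate 2, with 12222 against 44310. Per 10000 peaks of their lists, Zeb2 gave 6.77 and 6.55 Hoxc peaks and Sp5 gave 5.07 and 5.03, so in both pairs the replicates were closer on this scale than in counts. RXRα gave 4.35 and 12.9 in gastruloids and 1.61 and 2.13 in mESCs, so here the order of the replicates turned round and the gastruloid libraries stayed apart. The inputs held 514 peaks in gastruloids and 111 in mESCs, none of them at a Hoxc gene.

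**Figure D1:**
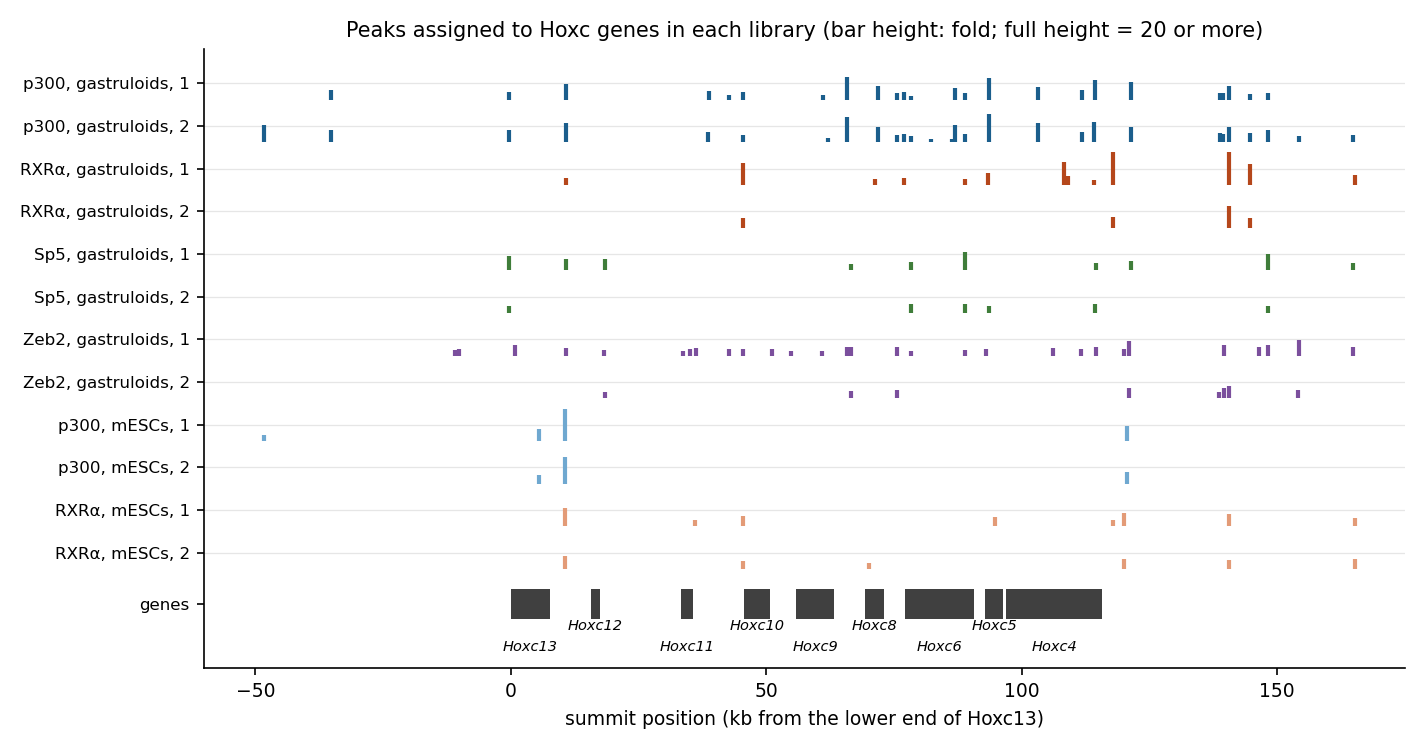
Peaks nearest to a Hoxc gene, 1 row per library, gastruloids above mESCs. A Zeb2 peak of replicate 1, 77474 bp below Hoxc13, lies outside the axis and is not drawn. The x axis is the summit's distance in kb from the lower end of Hoxc13, bar height is the authors' fold with 20 or more drawn at full height, and grey boxes are the genes. p300 peaks run from below Hoxc13 to beyond Hoxc4 in both gastruloid libraries, while both mESC libraries hold p300 peaks near Hoxc13 and just past Hoxc4, apart from 1 far below Hoxc13 in replicate 1.

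p300 marked 22 regions of the cluster in gastruloids and 3 in mESCs. Of the 22, 21 held no peak in either mESC library, which is 95.5%, beside 64% of the 42515 gastruloid p300 regions that could be given to a gene. The remaining 1 had a peak in both mESC libraries, beside 26.2% of all assigned regions. Of the 3 mESC regions, 2 had no peak in either gastruloid library, beside 43.8% of all, and 1 had a peak in both, beside 44%. Of the Hoxc p300 regions found in only 1 cell type, 21 of 23 were those of gastruloids, beside 71.1% of such regions given to any gene. Here and below, shares of all regions are shares of those given to a gene. By gene, 8 of 9 Hoxc members had a gastruloid p300 region, beside 68.3% of protein-coding genes, and 2 of 9 had an mESC region, beside 49.3%. Hoxc12 was the member without one in gastruloids. The regions were uneven among members, with 9 at Hoxc4, 5 at Hoxc6, 3 at Hoxc13 and 1 each at Hoxc5, Hoxc8, Hoxc9, Hoxc10 and Hoxc11. Assignment to the nearest gene end lets long genes, and the outer genes Hoxc4 and Hoxc13, draw on longer stretches. Hoxc4 spans 18760 bp, Hoxc6 13657 bp and Hoxc12, the shortest member, 1784 bp. In bulk libraries a change in the share of cells that carry p300 at a site and a change per cell cannot be told apart.

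**Figure D2:**
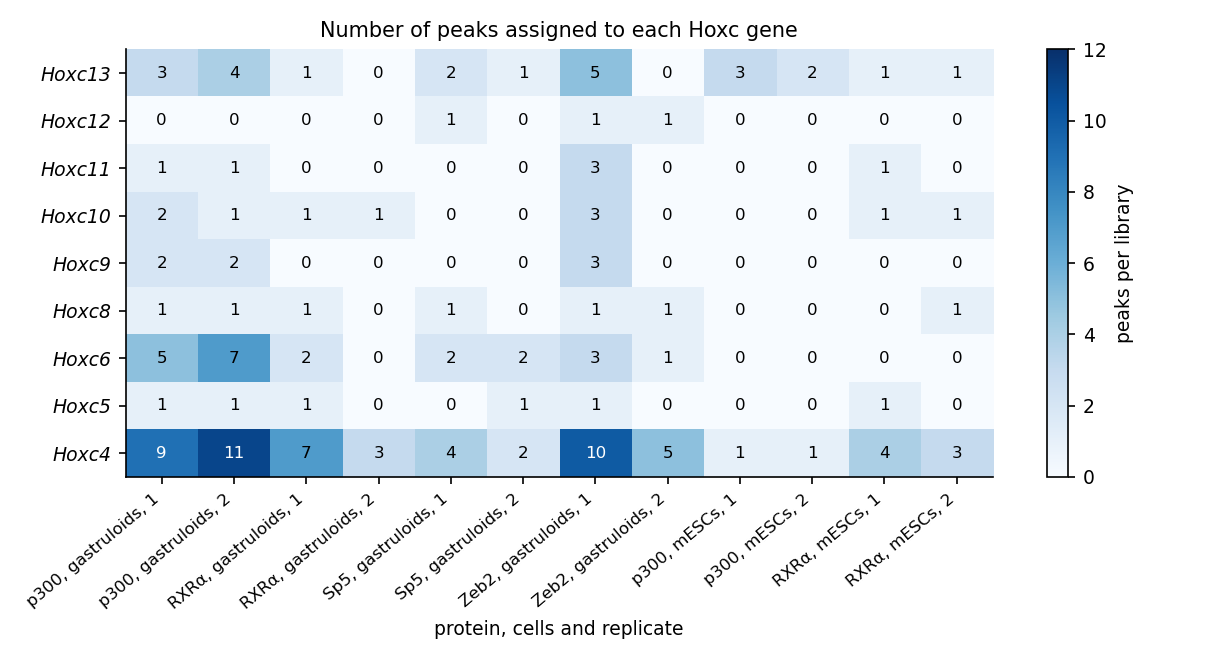
Number of peaks whose summit is nearest to each Hoxc gene, genes in the order of the cluster from Hoxc13 at the top, libraries with gastruloids left of mESCs. Hoxc4 holds 9 and 11 p300 peaks in gastruloids against 1 and 1 in mESCs, and Hoxc5, Hoxc6, Hoxc8, Hoxc9, Hoxc10 and Hoxc11 hold p300 peaks in gastruloids alone.

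Each peak carries the authors' fold, which sets the fragments stacked at its summit against a local background drawn from its surroundings. Both quantities could be recovered as whole fragments and an expected number, and both were divided by the most frequent background of their library, here called the library-wide background, to set libraries of different depth side by side. That division does not correct for how well an immunoprecipitation worked. Between replicates, the 22 p300 summits lay a median of 16 bp and at most 76 bp apart. Their scaled fragments had Spearman's rho of 0.98 across the 22 regions, which share libraries and are not independent. Just outside the rule, 2 further p300 peaks of replicate 1, with folds of 2.93 and 2.58, and 5 of replicate 2, with folds from 1.93 to 10.3, had no partner in the other gastruloid library. The peak with a fold of 10.3, 48244 bp below Hoxc13, overlapped a p300 peak of mESC replicate 1 with a fold of 3.77.

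At the Hoxc13 end the p300 regions of gastruloids were low by summit fragments. The region farthest out, 35150 bp below Hoxc13, had 19 and 16 fragments at its summits in gastruloids, with folds of 6.06 and 7.28. At the lower end of Hoxc13 itself, 278 bp from the gene, a region had 21 and 28 fragments with folds of 4.71 and 7.35. Neither had a peak in mESCs. Sp5 had a region at the second site, with its summit 53 bp away and folds of 8.79 and 4.23. Hoxc13, the last gene of the cluster, is known for its part in hair and nail formation. Inside Hoxc13, 2209 bp from its nearest end, p300 had a region in mESCs alone, with 44 and 28 fragments and folds of 7.45 and 5.19.

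The region held in both cell types lay between Hoxc13 and Hoxc12, at chr15:102931594-102932127. It had 58 and 58 fragments in gastruloids, against 250 and 158 in mESCs. Folds were 9.41 and 11.9 in gastruloids and 19.9 and 16.1 in mESCs. Over the library-wide background the summits stood at 29.7 and 44.7 in gastruloids (37.2 ± 10.6, SD, n = 2) and at 92.3 and 68.1 in mESCs (80.2 ± 17.1, SD, n = 2). Both gastruloid libraries were below both mESC libraries. RXRα had a region at the same place in mESCs, with summits 18 bp apart and folds of 11.3 and 7.97, and a peak of RXRα replicate 1 alone in gastruloids, with a fold of 4.37.

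Hoxc12 had no p300 or RXRα peak in any library, and the gap between the gastruloid p300 regions on its sides was 27475 bp. A Zeb2 region lay 863 bp from the gene, with folds of 3.60 and 3.71 and 16 and 10 fragments, and it was the weakest of the 6 Hoxc Zeb2 regions. Sp5 replicate 1 had a peak nearby with a fold of 7.01 that replicate 2 did not have.

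Hoxc11 and Hoxc10, which pattern the hindlimb and lumbosacral levels together with their relatives in the other clusters, had 1 p300 region each in gastruloids and none in mESCs. The Hoxc11 region, 3107 bp from the gene and on the side of Hoxc10, had 43 and 41 fragments and folds of 5.03 and 6.50. The Hoxc10 region, 155 bp from the lower end of Hoxc10, had 31 and 24 fragments and folds of 4.73 and 4.47. RXRα had a region at that Hoxc10 site in both cell types. Its folds were 13.2 and 5.76 in gastruloids, against 6.34 and 5.03 in mESCs, and its summits stood at 62.5 and 17.98 times the library-wide background in gastruloids, against 14.9 and 10.5 in mESCs. The gastruloid libraries were above the mESC libraries, but the gap between the gastruloid replicates was larger than that between the cell types' nearest values. p300 had no mESC peak there, although RXRα did.

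From Hoxc9 to Hoxc4 the p300 regions were denser and higher. Hoxc9 and Hoxc8 act at thoracic levels in mice. The Hoxc9 region, between Hoxc9 and Hoxc8 and 2517 bp from the upper end of Hoxc9, had 201 and 189 fragments and folds of 13.7 and 15.8. The Hoxc8 region, inside the gene, had 132 and 108 fragments and folds of 8.46 and 9.66. Neither place had a p300 peak in mESCs or a region of any other protein. A Zeb2 region lay 240 bp above the Hoxc9 region, with folds of 5.03 and 4.31.

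Hoxc6, a thoracic and forelimb-level gene, had 5 p300 regions. From its lower end upward they had 88 and 67, 80 and 67, 45 and 51, 182 and 192, and 142 and 139 fragments. Their folds were 4.28 and 4.37, 4.58 and 5.26, 2.52 and 3.89, 7.42 and 10.5, and 4.14 and 5.20. The fourth of these regions was therefore the highest by fold and by fragments, and the third had the lowest fold of all 22 Hoxc regions in replicate 1. The second lay 85 bp from the lower end of Hoxc6. Zeb2 had a region at the first, and Sp5 had regions at the third and at the fifth, with folds of 4.99 and 5.44 and of 10.99 and 5.36.

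By summit fragments, the strongest gastruloid p300 region of the cluster lay inside Hoxc5, at chr15:103014410-103014974, with its summit 650 bp from the lower end of the gene. It had 363 and 361 fragments and folds of 13.6 and 17.7. By the authors' −log10 q, which was 268 and 307, it ranked at position 238 of 63117 peaks in replicate 1 and 138 of 75346 in replicate 2. No p300 peak of mESCs lay there. RXRα replicate 1 (fold 7.31), Sp5 replicate 2 (fold 4.35) and Zeb2 replicate 1 had peaks there in gastruloids, and no group had them in both replicates. The region overlaps the gene of the microRNA miR-615, which is encoded within Hoxc5. Its upper end covers all 22 bases of miR-615-5p and 6 bases of miR-615-3p. The cluster's other microRNA in the RefSeq table, miR-196a-2, which is known to repress Hox transcripts, lies at chr15:102973365-102973386 for its 5p arm and overlapped no p300 region of gastruloids. The mature arms are shown because the Hoxc5 region reaches into the first hairpin and not into the second. They are given 5′ to 3′ from RefSeq (GRCm38.p6, plus strand) with the seed, bases 2 to 8, in capitals.
mmu-miR-615-5p: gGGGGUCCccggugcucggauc
mmu-miR-615-3p: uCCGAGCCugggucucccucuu
mmu-miR-196a-5p: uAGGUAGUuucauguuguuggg
The 3 seeds differ from each other, and microRNA levels are not measured by these libraries.

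Hoxc4, the first gene of the cluster and active at cervical levels, had 9 gastruloid p300 regions, 3 inside the gene and 6 past its upper end. Those inside had 65 and 93, 132 and 115, and 286 and 225 fragments, with folds of 8.02 and 11.6, 5.61 and 6.55, and 12.1 and 12.6. The last of them was the second strongest gastruloid p300 region of the cluster by fragments in both replicates, and Sp5 had a region there with folds of 4.30 and 5.68. RefSeq places the start of 1 Hoxc4 transcript between the second and the third, 16.3 kb above the lower end of the gene. The p300 summits on either side were 1474 bp below and 993 bp above that start. The 300-base window around it, chr15:103034145-103034444 on the plus strand (GRCm38.p6, RefSeq), held no peak of any of the 12 libraries and was 985 bp and 648 bp away from the regions on its sides. Its sequence is printed because the Hoxc4 window was the only one of the 9 members in the promoter table, and it was chosen after its values were seen. Capitals mark the letters AGGTCA, the core motif of nuclear receptors, on the minus strand at position −146 from the start, and the letters GGGCGG, a GC box of the kind Sp factors bind, at −45.
Hoxc4 promoter: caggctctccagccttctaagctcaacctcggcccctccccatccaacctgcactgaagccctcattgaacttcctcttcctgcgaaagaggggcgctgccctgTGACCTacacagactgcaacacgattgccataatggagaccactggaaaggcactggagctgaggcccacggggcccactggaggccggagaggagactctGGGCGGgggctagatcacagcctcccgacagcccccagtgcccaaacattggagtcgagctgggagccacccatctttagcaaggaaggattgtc
On either strand, AGGTCA was in 16.3% and GGGCGG in 35.7% of 32851 windows of the same length in the table, and the 2 matches do not overlap. The window had 60.3% G and C, beside a median of 52.7% over all windows. Direct repeats of AGGTCA with 1, 2 or 5 bases between them, the E-box CACCTG bound by Zeb factors, the Cdx letters CAATAAA and the Pbx-Hox letters TGATNNAT were also searched and not present in this window.

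The 6 regions past Hoxc4 lay 5708 to 32512 bp above the gene, in the stretch without protein-coding genes, and none had a p300 peak in mESCs. The nearest, at chr15:103042170-103042888, had 111 and 71 fragments and folds of 10.7 and 9.43. The mESC-only p300 region of Hoxc4, at chr15:103041124-103042116, ended 53 bp before it and had 56 and 40 fragments and folds of 9.05 and 7.18. The gastruloid and mESC summits were 814 bp apart, so the p300 peaks of the cell types were neighbours without overlapping. A Zeb2 region of gastruloids, with folds of 8.69 and 6.09, reached into both. An RXRα region of mESCs alone, with folds of 8.17 and 5.81, overlapped the mESC p300 region. Further out came a group of 3 p300 regions between 23149 and 24859 bp past the gene, with 45 and 53, 44 and 47, and 110 and 103 fragments. The last 2, at 28949 and 32512 bp, had 37 and 48 and 26 and 37 fragments.

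**Figure D3:**
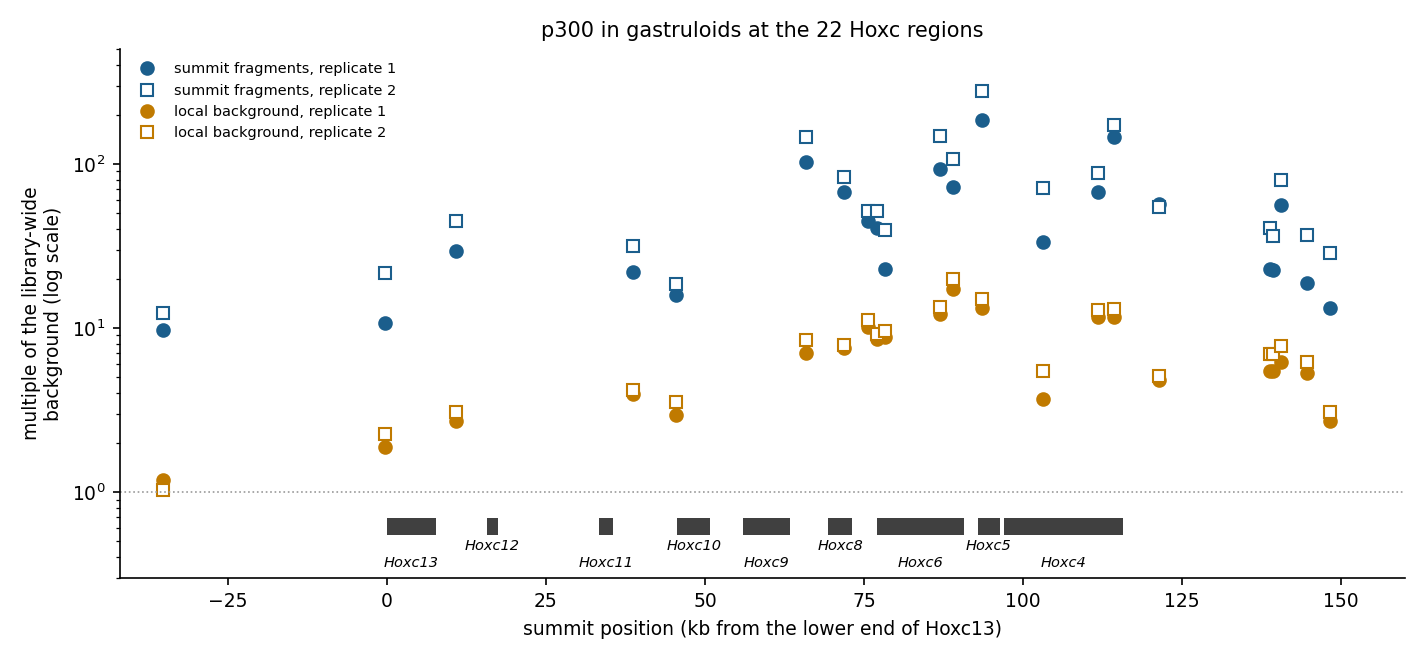
Summit fragments (blue) and local background (orange) of the 22 gastruloid p300 regions, as multiples of the library-wide background on a log axis, against position in kb from the lower end of Hoxc13. Filled circles are replicate 1, open squares replicate 2, grey boxes genes and the dotted line the library-wide background. Both measures are lowest below Hoxc13, at 1.18 and 1.03 for the background, and the background is highest at the last Hoxc6 region, at 17.2 and 20.0.

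The local background also differed along the cluster. Beyond the Hoxc13 end it was 1.18 and 1.03 times the library-wide background at the outermost region. Over the 3 regions from Hoxc13 to Hoxc10 its median was 2.95 and 3.54 times, over the 11 regions from Hoxc9 to Hoxc4 it was 10.1 and 11.2 times, and over the 6 regions past Hoxc4 it was 5.41 and 6.55 times. The lowest of the 11 values from Hoxc9 to Hoxc4, at the first region inside Hoxc4, was 3.70 and 5.46. The highest from Hoxc13 to Hoxc10 was 3.96 and 4.21, so these stretches overlapped in replicate 1 and did not in replicate 2. The highest value, at the fifth Hoxc6 region, was 17.2 and 20.0 times. Of the Hoxc peaks, 8 of 24 in replicate 1 and 10 of 28 in replicate 2 lay in the top 1% of their list by local background, where 1% of all peaks lie by construction. In mESCs 0 of 4 and 0 of 3 Hoxc p300 peaks did, and the highest mESC values were 4.29 and 3.82, at the region shared by both cell types. Because the background enters the fold, the 2 scales read differently. The median fold of the 22 regions was 6.06, beside 6.46 over all gastruloid p300 regions, while their median summit stood at 47.3 times the library-wide background, beside 15.6 over all. The sources used here do not say whether the authors' background came from an input or from the immunoprecipitation itself. Gastruloids had 1 input, yet the scaled background at 1 place differed among their libraries. At the p300 region 24859 bp past Hoxc4 it was 6.16 and 7.74 for p300, and 23.8 and 4.01 for RXRα. The background thus varied with the library and should not be read as a measure separate from the immunoprecipitated signal.

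RXRα had 4 regions in gastruloids and 5 in mESCs. In gastruloids 1 of the 4 had no mESC peak, beside 17.8% of all assigned RXRα regions of gastruloids, 2 had a peak in both mESC libraries, beside 69.6%, and the other 1 had a peak in a lone mESC library. In mESCs 1 of 5 had no gastruloid peak, beside 63.5%, and 2 had a peak in both gastruloid libraries, beside 6.6%. The short list of gastruloid replicate 2 limits all of these classes. By gene, 2 of 9 members, Hoxc10 and Hoxc4, had an RXRα region in gastruloids, beside 8.74% of protein-coding genes, and 3 of 9, these and Hoxc13, had one in mESCs, beside 49.4%. Of the 22 gastruloid p300 regions, 3 held an mESC peak of RXRα, beside 40% of all assigned gastruloid p300 regions.

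The highest RXRα value of the cluster lay 24836 bp past Hoxc4, at chr15:103061480-103061877. It had 760 and 71 fragments in gastruloids, against 40 and 23 in mESCs. Folds were 27.9 and 13.2 in gastruloids and 7.80 and 5.25 in mESCs. By −log10 q, 788 and 53.4, it ranked at position 2 of 29867 peaks in replicate 1 and 35 of 3111 in replicate 2 of gastruloids, against 10954 of 49661 and 12730 of 28112 in mESCs. Over the library-wide background the summits stood at 688 and 63.8 in gastruloids (376 ± 441, SD, n = 2) and at 19.2 and 10.5 in mESCs (14.8 ± 6.18, SD, n = 2). Both gastruloid libraries were above both mESC libraries, and the gastruloid libraries themselves were far apart. p300 had a region at the same place in gastruloids, with its summit 23 bp from that of RXRα and folds of 8.50 and 9.42. Zeb2 replicate 2 had a summit 10 bp from that of RXRα, with a fold of 7.29. The Zeb2 peak of replicate 1 covers the place too, but it is 1398 bp long and its summit, with a fold of 6.69, lay 882 bp away. In mESCs RXRα was present and p300 was not.

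Of the remaining gastruloid RXRα regions past Hoxc4, the nearer one, 2092 bp from the gene, had 354 and 24 fragments and folds of 23.4 and 6.47. It had no p300 region and a peak in RXRα replicate 1 of mESCs with a fold of 4.04. The farther one, 28924 bp from the gene, had 348 and 31 fragments, folds of 12.97 and 6.08, a p300 region with its summit 25 bp away and no RXRα peak in mESCs. RXRα replicate 1 alone had 9 more peaks in gastruloids, and the highest of these lay 7509 bp from the upper end of Hoxc4, inside the gene, with a fold of 14.4 and 92 fragments. Of the 4 gastruloid regions 3 lay at a p300 region, beside 86% of all, 1 lay at a Zeb2 region, beside 43.4%, and 0 lay at an Sp5 region, beside 47%. Of the 5 mESC regions 2 lay at an mESC p300 region, beside 42.4%, and of the 3 mESC p300 regions 2 lay at an mESC RXRα region, beside 37.6%.

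**Figure D4:**
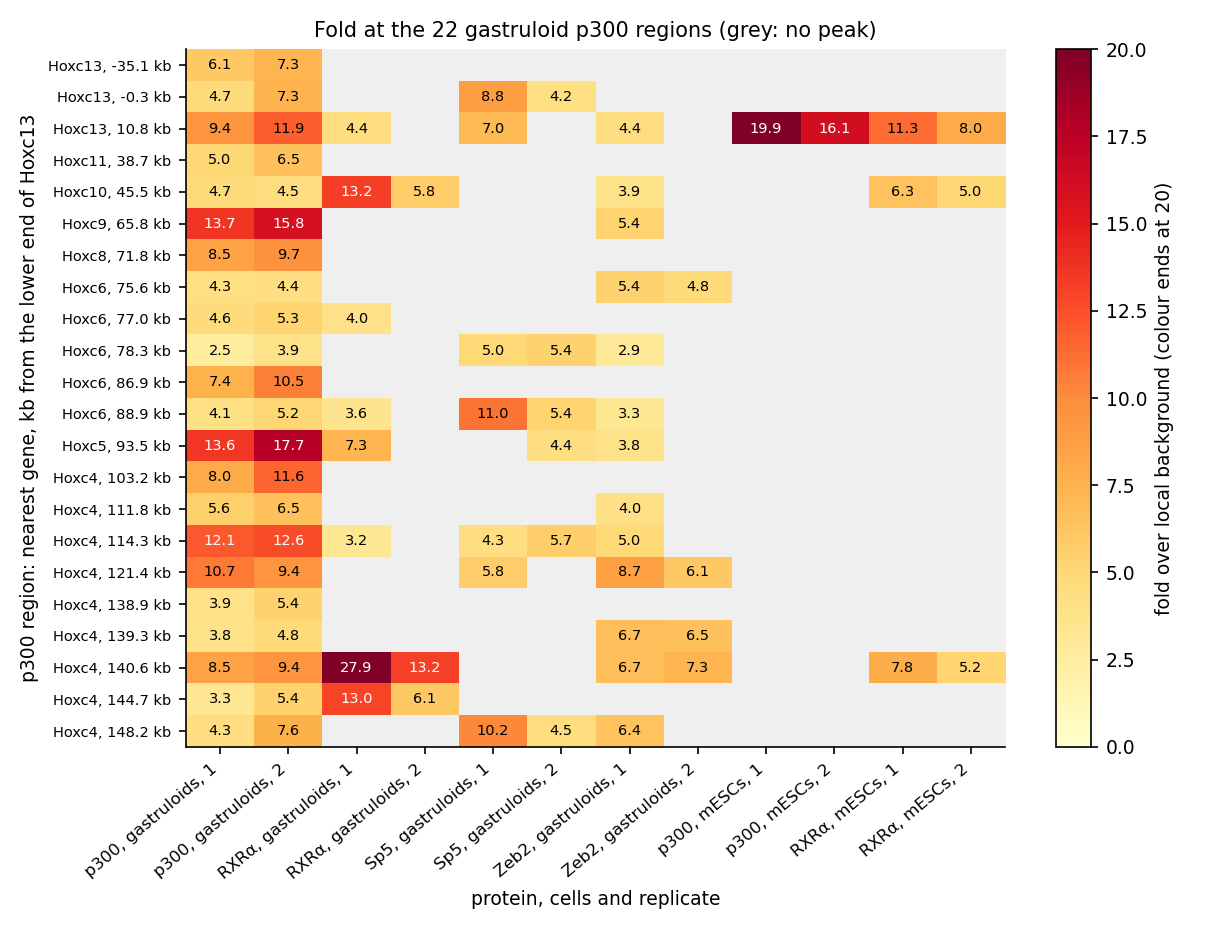
The authors' fold of the strongest peak of each library (columns, gastruloids left of mESCs) at each of the 22 gastruloid p300 regions (rows, named by nearest gene and by kb from the lower end of Hoxc13); grey cells have no overlapping peak. The mESC p300 columns are filled at 1 region alone, between Hoxc13 and Hoxc12, and RXRα reaches 27.9 and 13.2 at the region 140.6 kb along.

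Sp5 had 5 Hoxc regions, 1 at Hoxc13, 2 at Hoxc6 and 2 at Hoxc4, and all 5 lay at p300 regions, beside 84.9% of all assigned Sp5 regions. These are 3 of 9 members, beside 39.9% of genes. Zeb2 had 6, 1 each at Hoxc12, Hoxc8 and Hoxc6 and 3 at Hoxc4, and 3 of the 6 lay at p300 regions, beside 78.1%. These are 4 of 9 members, beside 33% of genes. No Sp5 region overlapped a Zeb2 region, 0 of 5, beside 41.3% of all Sp5 regions, or 0 of 6, beside 46.7% of all Zeb2 regions. In the longer lists some of the sites did meet. Zeb2 replicate 1 had peaks at 4 of the 5 Sp5 regions, with folds of 2.92 and 3.26 at Hoxc6 and 4.98 and 6.38 at Hoxc4, and Sp5 replicate 1 had peaks at 3 of the 6 Zeb2 regions, with folds of 7.01, 3.89 and 5.84. The short lists of Zeb2 replicate 2 and Sp5 replicate 2 had 0 peaks at any of the Sp5 or Zeb2 regions, respectively. At those 4 Sp5 and 3 Zeb2 regions, it was thus the replicate 2 list that lacked a peak. At the remaining Sp5 and Zeb2 regions the other protein had no peak in either replicate. Whether list length accounts for this was not tested. Of the 22 p300 regions, 11 held a region of RXRα, Sp5 or Zeb2, beside 29.6% of all assigned gastruloid p300 regions. By protein, 3 held RXRα, beside 4.28%, 5 held Sp5, beside 20.9%, and 4 held Zeb2, beside 17.1%. Counting a peak of any 1 of the gastruloid factor libraries, 16 of 22 held one, beside 54.1%. Zeb2 replicate 1 alone had peaks at 13 of 22, beside 45.2%, and RXRα replicate 1 at 8, beside 33.6%. The region inside Hoxc8 and the fourth Hoxc6 region, with 132 and 108 and 182 and 192 p300 fragments, were among those with no factor peak in any library.

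Among the 4 Hox clusters, p300 regions of gastruloids outnumbered those of mESCs in each. The Hoxc genes had 22 and 3, the 11 Hoxa genes 24 and 5, the 10 Hoxb genes 33 and 7, and the 9 Hoxd genes 13 and 0. Without an mESC peak were 21 at Hoxc, 19 at Hoxa, 28 at Hoxb and 12 at Hoxd. Inside the cluster's own span, from the first gene to the last, the gastruloid p300 regions came to 1.21 per 10 kb at Hoxc, 1.61 at Hoxa, 1.55 at Hoxb and 1.34 at Hoxd. The median local background at the regions was 6.58 times the library-wide level at Hoxc, 14.6 at Hoxa, 12.2 at Hoxb and 7.13 at Hoxd. RXRα had 4 gastruloid regions at Hoxc, 10 at Hoxa, 7 at Hoxb and 2 at Hoxd, and Zeb2 had 6, 10, 20 and 7.

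**Figure D5:**
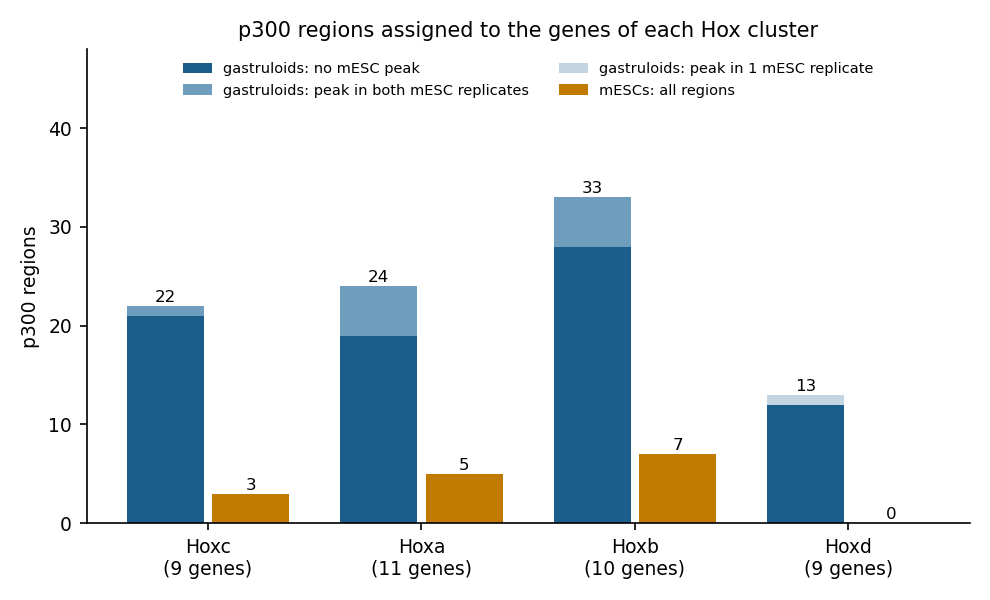
p300 regions given to the genes of each Hox cluster, Hoxc first. Blue bars are gastruloid regions, split by whether an mESC library has a peak there, and orange bars are mESC regions; numbers above the bars are totals. Gastruloid regions exceed mESC regions in all 4 clusters, and the part without an mESC peak is 21 of 22 at Hoxc.

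A list of 20 known regulators and cofactors of Hox genes was counted in the same way. More p300 regions were found in gastruloids alone than in mESCs alone at 15 of the 20, beside 43.9% of all protein-coding genes, fewer at 0, beside 11.2%, and equally many at 5. The 43.9% and 11.2%, or 9609 and 2452 genes, are shares of all genes, also those without a gastruloid p300 region. Each of the 20 had such a region. Over the list there were 85 gastruloid-only regions against 18 mESC-only regions, so 82.5% were those of gastruloids, beside 71.1% of all such regions. Cyp26a1, which degrades retinoic acid, had 8 against 0. Meis1 and Meis2, homeodomain cofactors of Hox proteins, had 15 against 3 and 15 against 4. Cdx2 and Cdx4, caudal factors that act on the clusters in mice, had 3 against 0 and 2 against 0. The equal ones were Cdx1, Rarg, Ezh2, Suz12 and Cbx7, of which Ezh2, Suz12 and Cbx7 encode Polycomb subunits. Of the 3 protein-coding neighbours below the cluster, all had more p300 regions in gastruloids alone than in mESCs alone, Calcoco1 with 7 against 0. Of the 3 above it, Smug1 had more, 4 against 1, Cbx5 fewer, 1 against 2, and Hnrnpa1 equally many, 1 against 1.

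The genes outside the Hox clusters whose peak counts over the 12 libraries were most like the sum of the 9 Hoxc genes were Fbxw4, with a Pearson r of 0.990, Gm38821 with 0.987, Sim1 with 0.987, Pax1 with 0.980 and Fbln2 with 0.977, of 6354 genes with at least 20 peaks. Library lengths are shared by all genes, so these correlations are not free of them and are given as a description. Fbxw4 had 8 and 9 p300 peaks in gastruloids, against 2 and 2 in mESCs.

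As a check of the labelled cells, 8 marker genes of gastruloid tissues were counted (T, Tbx6, Meox1, Msgn1, Uncx, Cdx2, Sox1 and Hes7). Of these, 7 had more gastruloid-only than mESC-only p300 regions, beside 43.9% of all protein-coding genes, with Sox1 the exception at 5 against 6. Over all genes, 9609 had more and 2452 fewer, and the rest include genes without a gastruloid p300 region. Most genes that differed thus lay toward gastruloids, so this list alone is a weak check of the labels. In all there were 33 against 7, so 82.5% were those of gastruloids, beside 71.1% of all such regions. Of 7 pluripotency genes (Nanog, Pou5f1, Esrrb, Tfcp2l1, Klf4, Zfp42 and Prdm14), 5 had fewer gastruloid-only than mESC-only regions, beside 11.2% of all protein-coding genes. Klf4 had 3 against 2 and Nanog 0 against 0. In all there were 12 against 20, so 37.5% were those of gastruloids, beside the same 71.1%. The median peak held 12 to 32 fragments at its summit in the 12 libraries, and sequencing depth itself was not given, so a site without a peak is one not detected at this depth.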

How the data were processed

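Libraries were grouped by the tagged protein and cell type of their labels. The tools named in the submitters' processing notes are MACS2 2.2.7, BWA 2.2.1 and fastp 0.20.1, and the mouse build is GRCm38.p6 (mm10); what each did, its settings and any control are not given in the sources used here. The deposited lists, 1 per library, give each peak a score (10 times its −log10 q), a fold (a ratio of summit to local background), and −log10 p and −log10 q values; summit offsets are in base pairs. All are the authors' values.

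Peaks with identical spans were counted once, peaks at an input peak were removed, and the 21 main chromosomes were kept. Overlap needed 1 bp. Summit fragments and background were recovered from fold and −log10 p (Python 3.11.15, scipy 1.17.1), whole within 0.01 for 99.5% of peaks in the lowest library. The recovery was also tested on simulated data made with the same formulas, which checks the arithmetic alone. Sequencing depth is unknown. Alternatives were a stricter q, lists of equal length, a 20 kb limit, 50% overlap, regions cut to the stretch covered in both replicates, no input filter, and each replicate left out or paired. The members and lists were chosen with earlier results of these data known. All 9 members and, by rule, the 5 genes most like them were named.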

Additional observations from a re-analysis of the deposited data

How the results depend on the processing

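Of the 76 counts from settings other than leaving out each replicate in turn, 62 stayed within 1.5 times the reported one and 14 did not. The 76 include the counts by replicate pair given below, which use single libraries. The 14 concern RXRα, Zeb2 and the p300 regions that hold a factor, and none is a count of p300 regions by cell type. With a −log10 q of at least 5, 2 RXRα regions were found in mESCs alone and Zeb2 had 3 regions. With the compared lists cut to the shortest among them, RXRα lists of 3111 peaks gave 4 regions in gastruloids alone, 0 in mESCs and 0 in mESCs alone. p300 lists of 35371 peaks gave 16 regions in gastruloids alone and 2 in mESCs alone. With all gastruloid lists at 3111 peaks, 4 p300 regions were left and 0 of them held a factor. With a 20 kb limit, RXRα had 2 regions in gastruloids, 0 of them in gastruloids alone, and 3 in mESCs, and 7 p300 regions held a factor.

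Leaving out each replicate in turn gave 24 to 28 p300 regions in gastruloids and 21 to 26 in gastruloids alone. It gave 2 to 2 in mESCs alone, 1 to 1 in both, and 11 to 15 that held a factor. Where a group lost a replicate, every peak of its other library counted as a region. The group's own count could therefore hardly fall, so these ranges do not check the rule that both replicates hold a peak. The range was 4 to 13 for RXRα regions in gastruloids (13 without replicate 2), 1 to 8 for those in gastruloids alone (8 without it), 6 to 8 for RXRα regions in mESCs, 1 to 3 for those in mESCs alone, 6 to 10 for Sp5 (10 without replicate 2) and 8 to 30 for Zeb2 (30 without replicate 2).

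No paired analysis was possible because the counts come from no test. With the replicate numbers as a block, library 1 was set against library 1 and 2 against 2, and peaks of single libraries were counted. p300 gave 23 and 27 such peaks in gastruloids alone. RXRα gave 8 and 2 in gastruloids alone and 3 and 4 in mESCs alone. The cause of these shifts was not tested. Depth limits all counts, since an undetected site may lie below the threshold of a short list.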
